A study of Homo sapiens with 2 samples.

Results

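The SMAD, SKI and ID genes were described in HEK-293T cells that had received a miR-194 mimic or a negative control mimic. The group holds 10 genes chosen by symbol: the signal carriers SMAD1, SMAD2, SMAD3, SMAD4 and SMAD5, the co-repressors SKI and SKIL, and the targets ID1, ID2 and ID3. The genes were chosen with earlier results of these data known. They were read by 35 of the 54675 probe sets on the array, each annotated to 1 of the genes and no other. HEK-293T is an established line of human embryonic kidney origin that carries the SV40 large T antigen. Each culture was transfected with its mimic at 50 nM with a lipid reagent, and the treatment lasted 48 h. Each group was 1 array of total RNA from this 1 line, so no p-value is given, and precision is limited by the number of arrays. An effect of the mimic cannot be told apart from a difference between the cultures, labelling reactions or arrays, nor less RNA per cell from fewer cells that express a gene.

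SMAD proteins carry signals of the TGF-beta family from the cell surface to the nucleus. Activated receptors phosphorylate SMAD2 and SMAD3 in response to TGF-beta and activin, and SMAD1 and SMAD5 in response to bone morphogenetic proteins (BMPs). These receptor-activated SMADs join the common partner SMAD4 and bind DNA. SKI and SKIL (also called SnoN) bind SMAD complexes and recruit co-repressors, which limits transcription of SMAD targets. ID1, ID2 and ID3 are well-known BMP targets. Their proteins have a helix-loop-helix domain without a DNA-binding region, and they hold E proteins away from DNA.

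The mimic supplies a mature microRNA, and the sequence shows which bases pair with target transcripts. The arm of the mimic is not given in the labels. RefSeq annotates the 5p arm at 2 genes, MIR194-1 (chr1:220118206-220118227, minus strand) and MIR194-2 (chr11:64891404-64891425, minus strand, GRCh38.p14), with the same 22 bases. The 3p arm is listed at MIR194-2 (chr11:64891368-64891389, minus strand). The capitals mark the seed, bases 2 to 8 from the 5′ end.
hsa-miR-194-5p: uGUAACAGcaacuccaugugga
hsa-miR-194-3p: cCAGUGGGgcugcuguuaucug
Of the human mature microRNAs in the RefSeq table, 1 had the 5p seed, namely miR-194-5p itself. Target sites in the transcripts of the 10 genes were not searched here.

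SKIL and SMAD5 were the lower members of the group, and no member was higher by 1.5-fold. Signals were on the authors' MAS5 scaling. Those under an array's median (log2 6.10 on the control array and 6.06 on the other) were set to that floor. A probe set was kept when its mean signal lay above the mean floor. Each gene was represented by its brightest kept probe set. By that rule 2 of 10 genes passed 1.5-fold in the lower direction, against 7.36% of all 12769 kept genes, and 0 of 10 were higher, against 3.02%. At 2-fold, 1 of 10 was lower (background 1.42%) and 0 were higher (background 0.446%). Because the genes were chosen with earlier results of these data known, these shares describe the group and do not test it. The median log2 difference of the 10 genes, miR-194 mimic minus control mimic, was -0.03, beside 0.02 over all kept genes. Of the 10 genes, 5 were below 0, and 47.5% of all kept genes were.

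In the absence of replicate arrays, the ± value after a difference is the probe set error. It is the SD, over 6456 genes, of the gap between the log2 differences of the 2 brightest kept readings of a gene, divided by √2 to apply to a single reading. It was 0.38 for genes whose brightest reading had a low signal, 0.31 for middle and 0.27 for high signals. Each probe set took the value for its own signal, also where it was a dimmer reading of a bright gene. The error leaves out variation between cultures and labelling reactions. The difference was larger than this error for 4 of the 10 genes, SMAD2, SMAD5, SKIL and ID3, and for 29.3% of all kept genes. Of the 35 probe sets, 28 were kept, and 15 of the 28 were below 0, against 47.2% of all 24226 kept probe sets. Among the 28, 3 were lower by 1.5-fold (7.99% of all kept probe sets) and 0 were higher (5.08%).

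**Figure D1:**
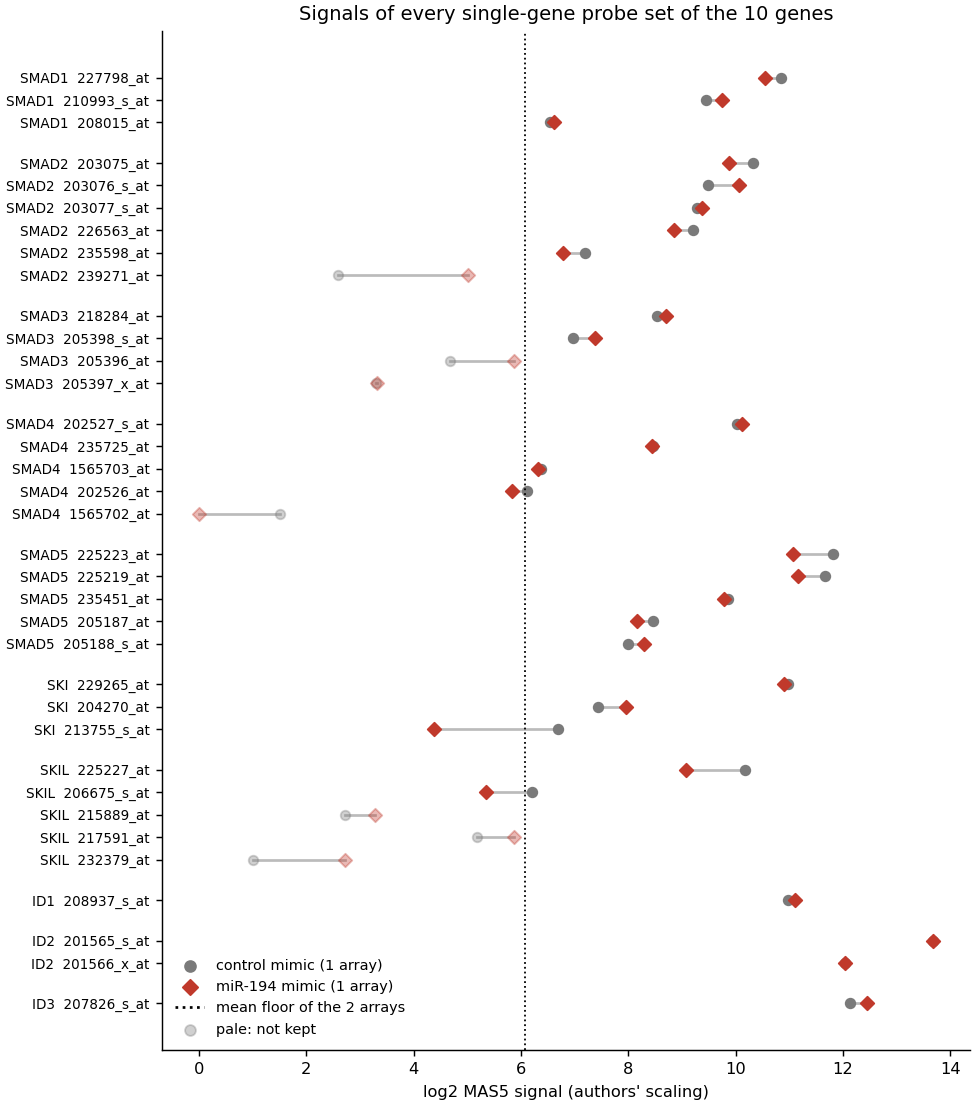
log2 MAS5 signal (x axis) of all 35 probe sets of the 10 genes, with the control mimic array as grey circles and the miR-194 array as red diamonds. The dotted line is the mean floor, and pale symbols are the 7 probe sets that were not kept. SKIL 225227_at and the brightest SMAD5 probe sets lie to the left with miR-194, and the ID2 symbols coincide.

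Of the BMP-responsive SMADs, SMAD5 was lower on its brightest probe sets. Probe set 225223_at had a signal of 3599 on the control array and 2155 on the miR-194 array, a log2 difference of -0.74 ± 0.27, or 1.67-fold lower. Probe set 225219_at read 3264 and 2292, a difference of -0.51 ± 0.27. These probe sets both lay beyond their error in the same direction. SMAD5 was the only one of the 8 members with at least 2 kept probe sets for which the 2 brightest did so, and 7.25% of 6456 genes were lower in that way. The dimmer SMAD5 probe sets gave -0.06 ± 0.31 (signals of 923 and 885), -0.30 ± 0.38 (352 and 287) and 0.30 ± 0.38 (256 and 315). So 4 of the 5 were below 0, and 1 was above. The log2 difference of SMAD5 was -0.26 as the mean over its probe sets, which is under 1.5-fold.

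SMAD1, the other BMP-responsive SMAD of the group, had probe sets on both sides of 0. Its brightest, 227798_at, read 1836 and 1500, a difference of -0.29 ± 0.31. The next, 210993_s_at, read 702 and 862, a difference of 0.30 ± 0.31. The dimmest, 208015_at, lay close to the floor at 92.9 and 98.0 and differed by 0.08 ± 0.38. None of the 3 differences exceeded its error, and the mean over them was 0.03.

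SMAD2, which carries activin and TGF-beta signals, had kept probe sets in both directions. Probe set 203075_at read 1273 and 940, a difference of -0.44 ± 0.31, and 226563_at (591 and 464) and 235598_at (146 and 110) stood at -0.35 ± 0.38 and -0.41 ± 0.38. Probe set 203076_s_at read 718 and 1072, a difference of 0.58 ± 0.31 in the other direction, just under 1.5-fold. Probe set 203077_s_at was near 0, at 0.09 ± 0.31 on signals of 623 and 661. The 5 kept SMAD2 probe sets therefore ranged over 1.02 on the log2 scale, and those of SMAD5 over 1.04. The mean over the SMAD2 probe sets was -0.11. A sixth, 239271_at, was under the floor on both arrays (6.04 and 32.2) and gives no difference.

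SMAD3, the partner of SMAD2 in the same branch, was not lower on any kept probe set. Its brightest, 218284_at, read 369 and 417, a difference of 0.18 ± 0.38. Probe set 205398_s_at read 125 and 166, a difference of 0.41 ± 0.38. The other 2 SMAD3 probe sets were under the floor on both arrays. SMAD4, shared by both branches, had the smallest difference of the 5 SMADs of the group on the brightest probe set. Its brightest probe set, 202527_s_at, read 1048 and 1118, a difference of 0.09 ± 0.31. Probe set 235725_at read 354 and 348 and differed by -0.02 ± 0.38. Probe set 1565703_at lay close to the floor at 83.2 and 79.4 and differed by -0.07 ± 0.38. These 3 SMAD4 probe sets stayed within their error, over a range of 0.16. The fourth kept probe set, 202526_at, read 69.5 and 56.9 and was under the floor with miR-194, so it gives a bound only. The fifth was under the floor on both arrays.

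Among the co-repressors, SKIL had the largest difference of the 10 genes. Its brightest probe set, 225227_at, read 1160 on the control array and 543 on the miR-194 array, a log2 difference of -1.10 ± 0.31, or 2.14-fold lower. This was outside the central 95% of all kept genes, which ran from -0.87 to 0.62, and 0.901% of kept genes had a lower value. The value for SMAD5 lay inside that range, with 3.96% of kept genes lower. The other kept SKIL probe set, 206675_s_at, read 74.1 and 40.9 and was under the floor with miR-194, so its signal was at least 1.11-fold lower. The remaining 3 SKIL probe sets were under the floor on both arrays, with control signals from 2.01 to 36.4. The 2-fold value of SKIL therefore rests on 1 probe set, and the mean over both kept probe sets was -0.62 with the second at its bound and -0.98 on the signals as deposited.

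SKI, which acts on SMAD complexes as SKIL does, stood near 0 on its brightest probe set. Probe set 229265_at read 2016 and 1921, a difference of -0.07 ± 0.27. The dimmer probe sets disagreed with it and with each other. Probe set 204270_at read 173 and 247, a difference of 0.52 ± 0.38. Probe set 213755_s_at read 103 and 20.9 and was at least 1.54-fold lower, with the miR-194 signal under the floor. With that bound, the kept SKI probe sets ranged over at least 1.14.

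The ID genes, downstream of the SMADs, were not lower on any of their 4 single-gene probe sets. ID1 read 2025 and 2213 on its single probe set, 208937_s_at, a difference of 0.13 ± 0.27. ID3 read 4498 and 5551 on 207826_s_at, a difference of 0.30 ± 0.27 and 1.23-fold higher, and 85.7% of kept genes had a lower value. ID2 read 13059 and 13060 on 201565_s_at, and 4190 and 4214 on 201566_x_at, so the arrays gave nearly the same signal. The direction of ID2 turned with the scaling between arrays: its log2 difference was -0.12 after quantile normalization and -0.11 after loess. ID1 and ID3 have 1 probe set each, so no second reading of them was available. All 4 single-gene probe sets of the ID genes have names ending in _s_at or _x_at, a kind compared for the SMADs below. A further probe set, 213931_at, is annotated to both ID2 and ID2B and was left out of the counts. It read 917 and 656, a difference of -0.48 ± 0.31, opposite to the flat ID2 probe sets.

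The kept probe sets of the SMADs were also compared by kind, a comparison chosen after the values were seen. Probe sets whose names end in _at alone were designed on sequence taken as unique to a gene or transcript. Those ending in _s_at or _x_at were designed on sequence shared between transcripts. Over all genes, probe sets ending in _a_at were also counted with the second kind. For the 5 SMADs, 11 of 13 kept probe sets of the first kind were below 0, with a median of -0.29, against 52.4% of all kept probe sets of that kind, with a median of -0.02. All 6 of the second kind were above 0, with a median of 0.30, against 60.3% of all such probe sets, with a median of 0.08. Probe sets of 1 gene are not independent readings, and most of these differences lay within their error. Beyond it were 225223_at, 225219_at, 203075_at and 235598_at of the first kind, and 203076_s_at and 205398_s_at of the second. SMAD4 202526_at counted as below 0 on a bound only. After median scaling and after loess the first count was 10 of 13, and the second was 6 of 6 under every scaling tried. The brightest of each kind were then set side by side, over probe sets above the floor on both arrays. The shared kind was higher in 5 of 5 members with both kinds, all SMADs, by a median of 0.59. Over all 3061 such genes it was higher in 65.1%, by a median of 0.13. The gap ran from 0.12 in SMAD4 to 1.04 in SMAD5, and in SMAD3 both kinds were above 0. SKI and SKIL have a shared-kind probe set that is under the floor with miR-194 and gives a bound only. With these bounds the shared kind was higher in 6 of 7 members and lower in SKI, beside 64.2% higher over 3521 genes. On the signals as deposited the shared kind minus the unique kind was -2.23 in SKI and 0.24 in SKIL. The ID genes have single-gene probe sets of the shared kind only, so gene and kind cannot be told apart in them.

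**Figure D2:**
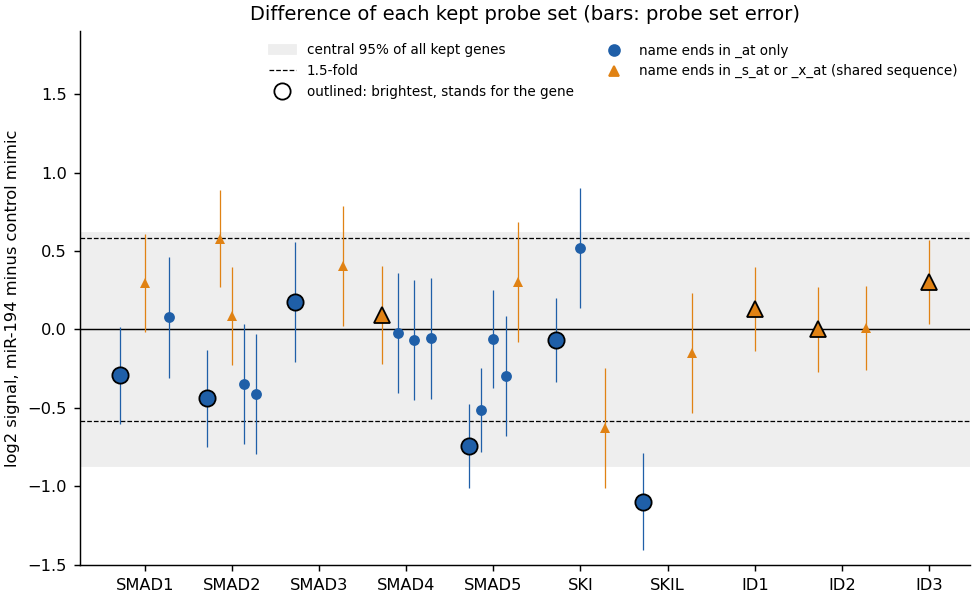
log2 difference, miR-194 minus control mimic (y axis), of the 28 kept probe sets by gene. Blue circles have names ending in _at alone, orange triangles are of shared-sequence types, outlined symbols stand for the gene, bars are the probe set error, the grey band is the central 95% of all kept genes and dashed lines mark 1.5-fold. In SMAD1, SMAD2 and SMAD5 the brightest symbol is blue and below 0, while the triangles lie above 0.

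The arrays also differed along the length of control transcripts, whose probe sets sit at the 5′ end, the middle and the 3′ end. For ACTB the 5′ probe set was higher with miR-194 by 1.25 on the log2 scale, the middle by 0.69 and the 3′ probe set by 0.32. The bacterial transcripts dap and thr, which are control RNAs added to a sample before labelling, were higher by 1.45 and 1.36 at the 5′ end and by 0.22 and 0.39 at the 3′ end. For GAPDH, lys and phe the differences ran from -0.13 to 0.23 at all 3 positions. So 3 of these 6 control transcripts had a 5′ difference of 1 or more. These values stand beside the split by probe set kind in the SMADs, and their part in it was not tested. The positions of the SMAD probe sets along their transcripts were not used here.

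**Figure D3:**
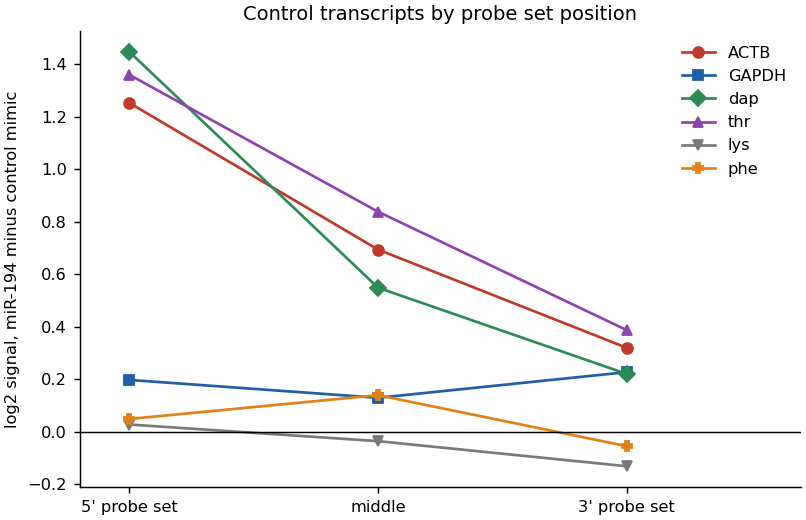
log2 difference, miR-194 minus control mimic (y axis), of the 5′, middle and 3′ probe sets (x axis) of 6 control transcripts. ACTB, dap and thr start between 1.25 and 1.45 at the 5′ end and reach 0.22 to 0.39 at the 3′ end, and GAPDH, lys and phe stay between -0.13 and 0.23.

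The remaining genes of TGF-beta and BMP signalling were taken from a list by role, written with earlier results of these data known. Of 87 genes, 81 had a single-gene probe set and 70 were kept. Of these, 6 (8.57%) were lower and 3 (4.29%) were higher by 1.5-fold, beside 7.36% and 3.02% of all genes. Without shared-sequence probe sets 11 of 55 (20.0%) were lower, beside 8.72% of all genes. The gap was narrower under every other setting, and its direction varied. The lower share was 10.6% beside 6.01% for the 75th percentile floor, and 13.6% beside 17.8% with no floor. The median of the 70 genes was -0.04, and 39 of them (55.7%) were below 0, beside 47.5% of all kept genes.

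The SMADs outside the 10 genes did not pass 1.5-fold. SMAD7, an inhibitory SMAD that SMAD signalling induces, read 816 and 819, a difference of 0.01 ± 0.31. SMAD6, which inhibits the BMP branch, stood at -0.17 ± 0.31 with another probe set at least 0.42 higher, under the floor on the control array. SMAD9, the further BMP-responsive SMAD, read 2957 and 2433, a difference of -0.28 ± 0.27. Of 12 kept genes for SMAD turnover and anchoring, 0 passed 1.5-fold on the brightest probe set. Over all kept genes, 7.36% were lower and 3.02% higher. On that probe set 9 of the 12 were below 0 (47.5% of all kept genes were). The 12 ran from TRIM33, a ubiquitin ligase for SMAD4, at -0.35 ± 0.27 to STUB1, a ubiquitin ligase partner of chaperones, at 0.17 ± 0.27. Dimmer probe sets did pass 1.5-fold in some of them. The lowest were at -0.98 for WWP1, -0.75 for PPM1A, -0.70 for TRIM33 and -0.59 for USP9X, and SMURF1 reached 0.68.

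SKIL is itself a TGF-beta target, and further SMAD targets were listed with it. Of 12 kept targets, 1 was lower and 0 were higher by 1.5-fold, beside 7.36% and 3.02% of all kept genes. Of the 12, 9 were above 0 (52.5% of all kept genes were) and the median was 0.14. Of the 9, SNAI2 and MYC exceeded their error. ATOH8, a BMP-induced transcription factor, was at -0.76 ± 0.38 on signals of 135 and 79.7, with other probe sets at -0.47 and 0.70, both bounds with 1 signal under the floor. SNAI2, a repressor of epithelial genes, was highest at 0.52 ± 0.27 (2861 and 4101). ID4, the remaining member of the ID family, read 6548 and 7073, a difference of 0.11 ± 0.27, and its other probe sets ran from -0.63 to 0.58. The E proteins, the binding partners of ID proteins, were below 0 on their brightest probe sets. TCF4 read 2952 and 1933, a difference of -0.61 ± 0.27, with 6 of 8 kept probe sets below 0. TCF3 was at -0.21 ± 0.27, and TCF12 at -0.06 ± 0.31. The 9 kept TCF3 probe sets lay on both sides of 0, from -0.46 to 0.25, with the next brightest at 0.04.

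Upstream, the receptors included 2 of 10 kept genes lower by 1.5-fold, beside 7.36% of all kept genes. The activin receptor ACVR2B read 1901 and 1070, a difference of -0.83 ± 0.31. The BMP receptor BMPR2 read 998 and 562, also -0.83 ± 0.31, while 2 of its 4 kept probe sets were higher, up to 0.79. BAMBI, a decoy receptor, was highest at 0.27 ± 0.31.

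Of 10 kept ligands, BMP2 alone passed 1.5-fold, at 0.82 ± 0.38 on signals of 328 and 581, and its second probe set was at 0.53. The shares over all kept genes, 3.02% higher and 7.36% lower by 1.5-fold, stand beside the ligands, traps and cofactors alike. GDF15 was lowest at -0.39 ± 0.38. Among 9 kept ligand traps and latency genes, the BMP antagonist NBL1 was at least 3.02-fold higher and FST, which binds activin, at least 1.70-fold higher, both under the floor with the control mimic. TWSG1, which binds BMPs, was lowest at -0.47 ± 0.27, with its other probe set at 0.80. Of 11 kept nuclear cofactors, ZEB1, a repressor that binds SMADs, stood at -1.38 ± 0.31 (1303 and 501), and MECOM, which binds SMAD3, at -0.61 ± 0.31. ZNF423, which binds BMP-activated SMADs, was highest at 0.22 ± 0.38.

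**Figure D4:**
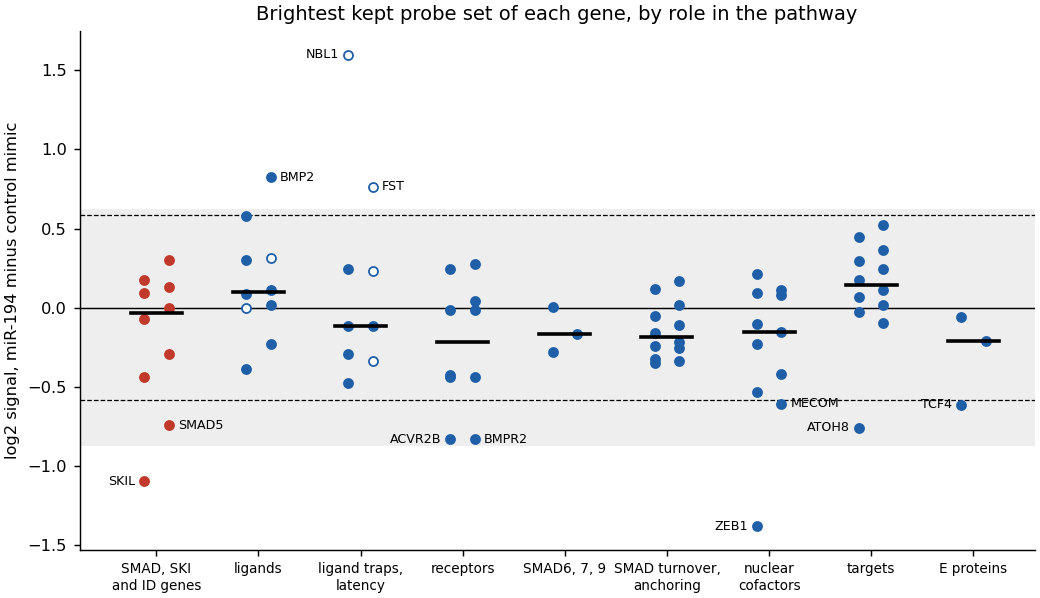
log2 difference, miR-194 minus control mimic (y axis), of the brightest kept probe set of the 10 genes (red) and of 70 further pathway genes by role (blue). Open circles were under the floor on at least 1 array, black bars are medians, the grey band is the central 95% of all kept genes, dashed lines mark 1.5-fold and genes past them are named. SKIL (-1.10) and ZEB1 (-1.38) lie below the band, and BMP2, FST and NBL1 above it.

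SMAD proteins bind DNA at short elements, and the promoters of SKIL and ID3 show one in context. RefSeq windows from 250 bases before to 50 bases after the annotated start (GRCh38.p14) were listed for 9 of the 10 genes, all but SKI, with several starts for SMAD1, SMAD2 and SMAD3. The letters CAGAC, the core of the SMAD-binding element, were searched on both strands, with GGCGCC, a BMP-linked element, and the palindrome GTCTAGAC. No motif contains another. CAGAC was found in 6 of the 18 windows of these genes (33.3%), for SMAD1, SMAD3, SKIL and ID3, and in 45.3% of all 35116 windows. GGCGCC was found in 8 of the 18 (44.4%), for the 5 SMADs and SKIL, and in 19.2% of all windows. GTCTAGAC was found in 0 of the 18 and in 0.202% of all windows. Windows of 1 gene overlap in part and are not independent. The match lay 107 bases before the SKIL start (window chr3:170357596-170357625, plus strand, printed with the reverse complement of CAGAC) and 147 bases before the ID3 start (chr1:23559631-23559660, minus strand). The capitals mark the matched letters, which describe sequence and not a measured site.
SKIL: gacggcggcggcGTCTGcgggaagctgtgt
ID3: ggtcttcggcgtCAGACcagccggaggaag
SKIL, with this match, was 2.14-fold lower, and ID3, with the same letters, was 1.23-fold higher.

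Across kept genes, which are not independent replicates, Pearson's r between the arrays was 0.99. Of 10 marker genes listed for HEK-293T, 9 had a single-gene probe set. Of these, 8 were above the floor on both arrays, among them NEFL, PAX2 and KRT18, and LHX1 was not. Of the markers of other cell types with a probe set, 1 of 4 blood, 0 of 5 hepatocyte, 1 of 5 fibroblast, 1 of 4 endothelial and 0 of 3 keratinocyte genes were above it. The summed signal of blood markers was 158 (control array) and 343 (miR-194 array), and among them HBB was above the floor. PTPRC, ALB, DCN, VWF and KRT5, defining markers of those types, were under the floor on at least 1 array.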

How the data were processed

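Total RNA of 2 HEK-293T cultures was measured on Affymetrix 3′ expression arrays. The authors deposited a log2 signal for every probe set on each array, made with MAS5 per the submitters' processing notes, in which no version appears. The base of the log and the scaling target are not stated there. Taking base 2, the 2% trimmed mean of the linear signals was 500.1 on each array. Scanner files and detection calls were not used here. The platform annotation names 1 gene for 41097 probe sets, and 41043 matched RefSeq by Entrez identifier. The 1801 probe sets with several genes were left out of the counts.

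The floor, the kept probe sets and the probe set error are defined with the results. Differences are log2 signal with miR-194 minus control. Text names all 10 genes with every kept probe set, SMAD6, SMAD7, SMAD9, ID4 and the E proteins, each listed pathway gene past 1.5-fold, and the highest and lowest of each role. Exceptions are the probe set shared by ID2 and ID2B, the control transcripts, MYC and the comparison by probe set kind, chosen after their values were seen. The dimmer probe sets of WWP1, PPM1A, TRIM33, USP9X and SMURF1 were also named after their values were seen. Members and lists were chosen with earlier results of these data known. Alternatives covered scaling (median, quantile, loess with a span of 0.3), floors (25th and 75th percentile, 95th percentile of 107 olfactory receptor probe sets, none), the probe set that stands for a gene, and a 2-fold threshold. The calculations were tested on simulated arrays and run in Python 3.11.15 with pandas 2.3.3, scipy 1.17.1 and statsmodels 0.14.6.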

Additional observations from a re-analysis of the deposited data

How the results depend on the processing

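The 2 members lower by 1.5-fold, SMAD5 and SKIL, were the same under all 3 scalings, all 4 floors and without shared-sequence probe sets, where 7 of the 10 genes remained. The count was 1, SKIL alone, with the mean over probe sets and with a 2-fold threshold. No alternative put a member higher by 1.5-fold. Of 87 single-gene values under the alternatives, 83 moved by less than the probe set error. The floors changed the value of SMAD3 alone. Leaving out shared-sequence probe sets changed that of SMAD4 alone, among the genes that remained. These settings were therefore little test of the values. The 4 values that moved further were SMAD1 (0.03), SMAD2 (-0.11), SMAD5 (-0.26) and SKIL (-0.62, which includes a bound). All 4 came with the mean over probe sets, where 8 members have at least 2 kept probe sets. The median log2 difference of the members ranged from -0.29 without shared-sequence probe sets to 0.0045 after median scaling. The first of these medians is over 7 genes, because ID1, ID2 and ID3 dropped out. Of the other pathway genes, 11 of 81 were lower with no floor (13.6%, beside 17.8% of all genes) and 11 of 55 without shared-sequence probe sets (20.0%, beside 8.72%). With the mean over probe sets 3 of 70 were lower (4.29%, beside 5.29%), and 1 of 70 at 2-fold (1.43%, beside 1.42%). Higher pathway genes numbered 6 of 78 for the 25th percentile floor (7.69%, beside 9.06%) and 6 of 81 for no floor (7.41%, beside 13.2%). They numbered 0 of 47 for the 75th percentile floor (beside 0.726%) and 1 of 70 at 2-fold (1.43%, beside 0.446%). The counts of SMAD probe sets by kind were recomputed under the other scalings after the data were seen. The single array per group allows no replicate check, and signals near the floor give bounds only.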
